A study of Caenorhabditis elegans with 6 samples.

Results

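Whole Caenorhabditis elegans worms carrying the scav-4(unk49) allele (strain CGZ337) were compared with wild-type (WT, N2) worms, both fed Escherichia coli OP50, the standard laboratory food bacterium, from the L1 stage and harvested at the L4 stage, the last larval stage. The comparison takes 2 of the 6 samples of the series, and these 2 samples have 4 of the 10 count tables used, 2 for each genotype. The sample pairs were chosen by their labels alone. Eggs from bleached animals hatched overnight without food, L1 larvae were placed on OP50, and RNA came from pellets of whole worms. A second allele, scav-4(unk59) (strain CGZ413), grown and harvested the same way on OP50, also had 2 tables and serves as a point of reference. The labels do not describe the DNA lesion of either allele or the number of times the strains were outcrossed. Each count table is called a library here, because tables of 1 sample differed by more than sampling noise. Whether both came from separate cultures is not given, so the p-values measure the spread between libraries of 1 sample, which may be technical. That spread was estimated over all 10 count tables used, which form 5 groups of genotype and food.

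scav-4 encodes a member of the CD36 family, membrane proteins that bind and take up fatty acids and lipoprotein lipids in animals, and the series asks how scav-4 mutants and a bacterial food rich in branched-chain fatty acids change gene expression. In an L4 hermaphrodite, the germline grows and makes sperm before it switches to oocytes, the gonad and uterus take their final form, and the epidermis prepares the adult cuticle for the last moult. Yolk proteins made in the intestine, oocyte proteins and eggshell proteins belong to the adult that follows. Genes of the moulting cycle peak once in each larval stage, so their levels depend on the hour of harvest as well as on the stage.

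The 4 libraries had between 23927295 and 24027579 reads, of which between 22231974 and 22375844 were assigned to genes. Levels are given in CPM, read counts scaled to a common library size, with library sizes adjusted by the trimmed mean of M-values (TMM). Fold changes are log2 values of unk49 over WT, with standard errors, from edgeR's quasi-likelihood test over 15950 genes, and a gene was called where its Benjamini-Hochberg adjusted p was below 0.05. The unk49 libraries stood apart from each other more than the WT libraries did. Among genes with at least 100 reads over a pair of libraries, 1361 of 11822 genes (11.5%) differed by more than 2-fold between the unk49 libraries, and 131 of 10909 (1.201%) did so between the WT libraries. Library 1 of unk49 held more oocyte and sperm mRNA, and library 2 held more yolk protein and uterine mRNA, so the germline, uterine and yolk lists are also given without each unk49 library. Intestine, muscle and neuron markers were present in all 4 libraries. Markers of male neurons and of early embryos were at or near 0: 6 of 7 male neuron genes and all 11 early embryonic genes were too low to test.

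scav-4 itself (WBGene00008692, chromosome X, WBcel235 positions 12981775 to 12985868, plus strand) was lower in the unk49 libraries. It had 141 and 162 reads in unk49, 775 and 802 reads in unk59 and 1031 and 803 reads in WT. In CPM this was 6.04 and 7.16 in unk49, 39.3 and 38.3 in unk59 and 47.3 and 36.1 in WT, so both unk49 libraries lay below all 4 others. The log2 fold change against WT was -2.66 ± 0.47 (SE) at an adjusted p of 0.00213, and it stayed between -2.87 and -2.45 with any 1 library left out. Against unk59, the value was -2.55 ± 0.47 (SE) at an adjusted p of 0.00181. unk49 worms kept a measurable amount of scav-4 mRNA. In unk59 worms, the log2 fold change of scav-4 against WT was -0.10 ± 0.43 (SE; edgeR adjusted p = 0.956).

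Of the 6 CD36-related scavenger receptor genes, all tested, 2 were higher and 2 lower in unk49, scav-4 included. Over all genes, 46.3% were called, 27.2% higher and 19.1% lower, so this share of called members, 4 of 6, stands beside a high background. scav-5 had 38.04 and 52.7 CPM in the unk49 libraries, against 21.998 and 15.2 CPM in the WT libraries, a log2 fold change of 1.29 ± 0.32 (SE) at an adjusted p of 0.0109. scav-2 had 66.8 and 41.7 CPM in the unk49 libraries, against 28.6 and 30.1 CPM in the WT libraries, a log2 fold change of 0.89 ± 0.23 (SE) at an adjusted p of 0.0114. Both were above WT in each unk49 library, as every gene called higher was. The scav-5 call was lost without unk49 library 2 or WT library 2. The scav-2 call was lost without unk49 library 1 or either WT library, and in a fit of these 2 groups alone. scav-6 had 20.7 and 35.1 CPM in the unk49 libraries, against 53.6 and 48.5 CPM in the WT libraries, a log2 fold change of -0.87 ± 0.31 (SE) at an adjusted p of 0.0447, and this call was lost without unk49 library 1 or either WT library and with a block for library number. scav-1 and scav-3 were not called, at -0.36 (adjusted p = 0.277) and -0.16 (adjusted p = 0.462). Nor were the neighbours of scav-4: mff-1, which overlaps its 3′ end on the other strand, had 9.30 and 15.4 CPM in the unk49 libraries, against 7.75 and 7.52 CPM in the WT libraries (log2 fold change 0.69 ± 0.27 (SE) at an adjusted p of 0.0576), F11C1.1, F11C1.4 and F11C1.7 had adjusted p between 0.18 and 0.42, and F11C1.9 and F11C1.10 were too low to test.

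**Figure D1:**
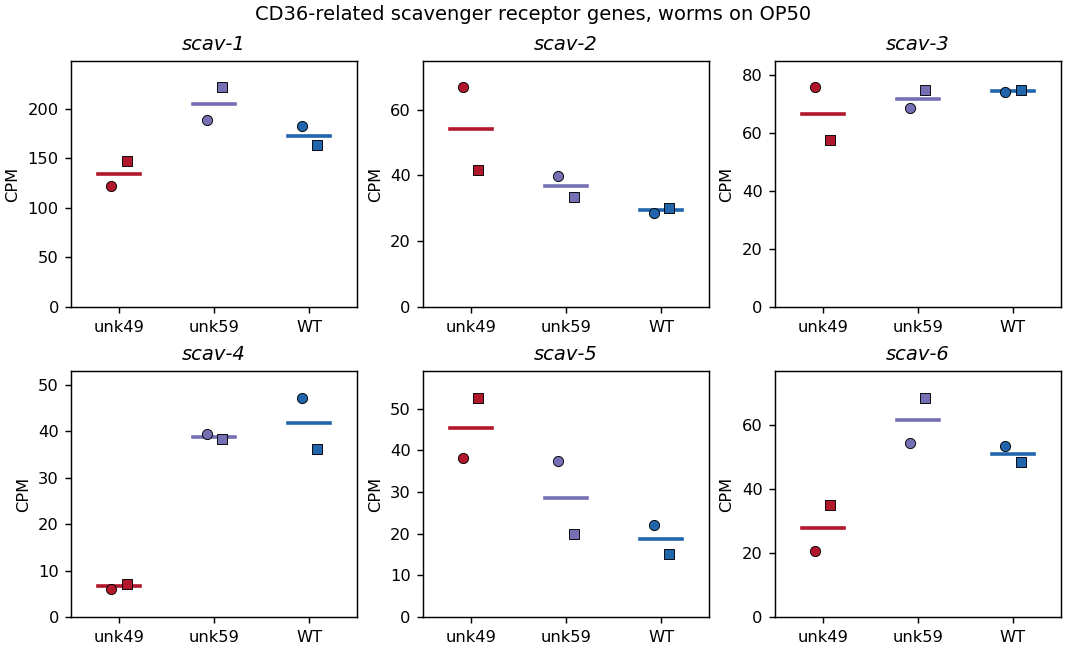
Levels of the 6 CD36-related scavenger receptor genes in CPM (vertical axes, each starting at 0) in unk49, unk59 and WT worms on OP50. Circles are library 1, squares library 2 and bars the mean of the 2 libraries; scav-4 sits at 6.04 and 7.16 CPM in unk49, below every unk59 and WT library.

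Across the transcriptome, 7392 of 15950 genes differed between unk49 and WT, 4345 higher and 3047 lower. In none of them did the unk49 and WT libraries overlap, so a lack of overlap adds nothing to a call. The higher genes changed by more: their median log2 fold change was 2.02, and 2197 of them had a log2 fold change of at least 2, whereas the lower genes had a median of -1.15 and 375 of them reached -2. In 456 genes called higher, both WT libraries had at most 3 reads, and in 92 called lower both unk49 libraries did. The median over all genes tested was 0.11, and it was 0.15 with relative log expression scaling and -0.09 with upper-quartile scaling, a scaling under which 3649 genes were higher and 4057 lower. Leaving out WT library 1 reduced the calls to 4168, and leaving out WT library 2 reduced them to 4316. For comparison, 8616 of 15950 genes (54%) differed between unk49 and unk59 on OP50, and 2 genes (0.0125%) differed between unk59 and WT. That low count does not mean equal levels, because the unk59 libraries were also apart from each other. Between them, 406 of 10515 genes (3.86%) differed by more than 2-fold, and the summed yolk protein genes were at 73.2 and 5410 CPM.

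**Figure D2:**
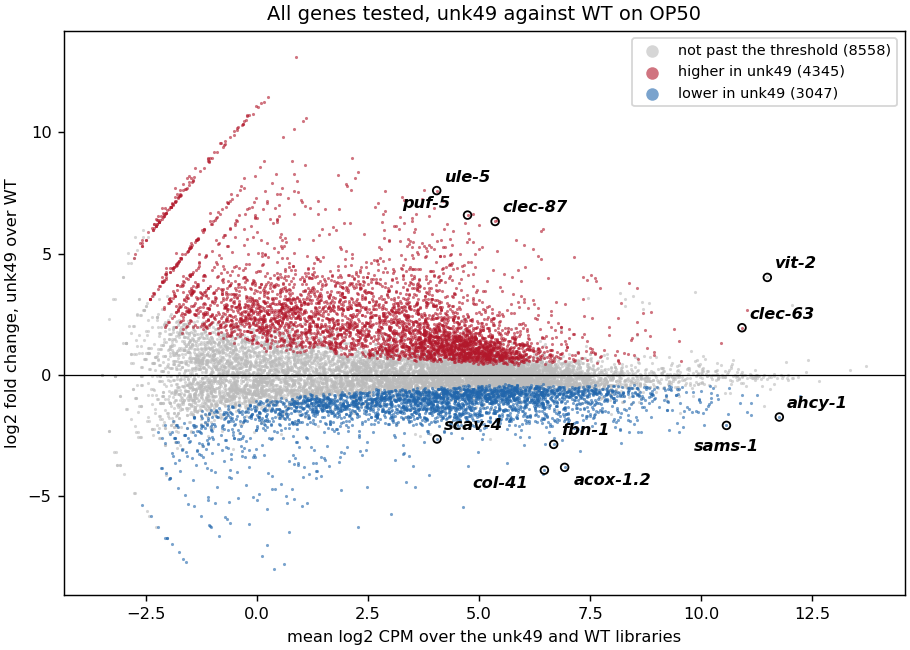
Log2 fold change of unk49 over WT (vertical axis) against mean log2 CPM over the 4 libraries (horizontal axis) for the 15950 genes tested, with the 4345 genes called higher in red, the 3047 called lower in blue and the rest in grey. Circled genes are named in the text; higher genes reach further from 0 than lower genes, and vit-2 is a high value that was not called.

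The largest increases among well-covered genes were in ule-5, puf-5, ule-3, clec-87, sip-1 and clec-88, of which the ule genes are described with the uterus. puf-5, an RNA-binding protein of oocytes, had 435 and 129 CPM in the unk49 libraries, against 3.02 and 2.84 CPM in the WT libraries, a log2 fold change of 6.59 ± 0.70 (SE) at an adjusted p of 0.000389. clec-87 and clec-88 encode proteins with C-type lectin domains. clec-87 had 546 and 222 CPM in the unk49 libraries, against 4.35 and 5.22 CPM in the WT libraries (log2 fold change 6.32 ± 0.54 (SE) at an adjusted p of 0.000234), and clec-88 had 165 and 162 CPM in the unk49 libraries, against 2.15 and 2.25 CPM in the WT libraries (log2 fold change 6.21 ± 0.37 (SE) at an adjusted p of 0.000158). sip-1, a small heat shock protein, had 329.7 and 137 CPM in the unk49 libraries, against 2.84 and 3.24 CPM in the WT libraries, a log2 fold change of 6.26 ± 0.89 (SE) at an adjusted p of 0.00109. Between the unk49 libraries, puf-5, clec-87 and sip-1 were more than 2-fold higher in library 1, whereas clec-88 was nearly even. The fold change of puf-5 was 5.31 without unk49 library 1 and 7.13 without unk49 library 2, so its size depended on the unk49 library and its call did not. That of clec-87 was 5.39 without unk49 library 1 and 6.75 without unk49 library 2, and that of sip-1 was 5.35 without unk49 library 1 and 6.67 without unk49 library 2.

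The oocyte and eggshell list, 20 genes all tested, had 18 higher members, 0 lower and a median log2 fold change of 5.09, against 0.11 over all genes. Its summed level was 7689.6 and 2851 CPM in unk49, 334 and 317 CPM in unk59 and 363 and 352 CPM in WT. Every oocyte gene was higher in unk49 library 1 than in library 2, yet library 2 still lay above both WT libraries in summed level. cbd-1, a chitin-binding eggshell protein, had 1282 and 368 CPM in the unk49 libraries, against 25.9 and 31.5 CPM in the WT libraries (log2 fold change 4.84 ± 0.64 (SE) at an adjusted p of 0.000731). rme-2, the yolk receptor of oocytes, had 364 and 96.6 CPM in the unk49 libraries, against 5.45 and 6.48 CPM in the WT libraries (log2 fold change 5.27 ± 0.74 (SE) at an adjusted p of 0.000968). Like the sum, both genes were separated from WT in each unk49 library, as every gene called higher was. oma-1 and oma-2, zinc finger proteins of oocyte maturation, had log2 fold changes of 4.29 and 5.60, and cpg-3, a chondroitin proteoglycan of the eggshell, had 183 and 155 CPM in the unk49 libraries, against 1.56 and 1.26 CPM in the WT libraries (log2 fold change 6.90 ± 0.63 (SE) at an adjusted p of 0.000308). Without unk49 library 1 the list median was 3.95, and 18 members were higher and 1 lower. Without library 2 the median was 5.52 with 19 higher. In whole worms, fewer cells of a type and less RNA per cell cannot be told apart, which holds for every gene group here. Fold changes without unk49 library 1 were 3.54 for cbd-1, 3.87 for rme-2, 3.10 for oma-1 and 4.52 for oma-2.

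Other germline groups moved the same way. Of 33 P granule and germline RNA-binding genes, 30 were higher and 0 lower (median 2.53). meg-1, a protein of germ granules, had 2043 and 562 reads in unk49, against 4 and 4 reads in WT, a log2 fold change of 8.23 ± 0.85 (SE) at an adjusted p of 0.000389. meg-4, its relative, had 349 and 144 reads in unk49, against 0 and 1 in WT. Of 32 genes of the meiotic chromosome axis and recombination, 31 were higher and 0 lower (median 2.52). spo-11, the enzyme that makes meiotic double-strand breaks, had 19.4 and 50.11 CPM in the unk49 libraries, against 1.79 and 1.49 CPM in the WT libraries (log2 fold change 4.41 ± 0.50 (SE) at an adjusted p of 0.000474), and syp-2, a synaptonemal complex protein, had 27.2 and 43.1 CPM in the unk49 libraries, against 2.93 and 3.11 CPM in the WT libraries (log2 fold change 3.54 ± 0.30 (SE) at an adjusted p of 0.000231). Both genes were higher in unk49 library 2 than in library 1, against the tilt of their list, in which 22 of 32 genes were higher in library 1. Of the P granule genes, 31 of 33 were higher in library 1. The fold change of meg-1 was 6.91 without unk49 library 1, and that of spo-11 was 3.48 without unk49 library 2.

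Of 33 cell cycle and DNA replication genes, 31 were higher and 0 lower (median 1.72). cyb-2.2, a B-type cyclin, had 143 and 124 CPM in the unk49 libraries, against 3.39 and 3.15 CPM in the WT libraries (log2 fold change 5.35 ± 0.50 (SE) at an adjusted p of 0.000323). cdc-25.3, a cell cycle phosphatase, had 418 and 310 reads in unk49 and 0 in both WT libraries, so it was at least 116-fold higher against a floor of 3 reads per library. Counts in these 3 lists depended on single libraries. Without unk49 library 1, 20 P granule, 25 meiotic and 18 cell cycle genes were called higher, and without WT library 1 these numbers were 18, 25 and 18. Without unk49 library 2 they were 29, 31 and 32, with medians of 2.89, 2.48 and 1.87. The medians without unk49 library 1 were 1.87, 2.07 and 0.99.

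Sperm genes, which L4 hermaphrodites normally express, were also higher. Of 29 major sperm protein genes tested out of 31, 28 were higher and 0 lower (median 4.07). Their summed level was 2693 and 1754 CPM in unk49, 3.81 and 68.3 CPM in unk59 and 141 and 120.1 CPM in WT. Because msp genes are near-identical copies, counting may split or drop their reads, and single members are uncertain. Of 30 other sperm genes, 15 were higher and 0 lower (median 1.61). gsp-4, a sperm phosphatase, had 50.08 and 24.6 CPM in the unk49 libraries, against 5.22 and 5.63 CPM in the WT libraries (log2 fold change 2.78 ± 0.52 (SE) at an adjusted p of 0.00279), and spe-11, a protein that sperm bring to the egg, had 12.9 and 14.01 CPM in the unk49 libraries, against 1.0999 and 0.855 CPM in the WT libraries (log2 fold change 3.77 ± 0.74 (SE) at an adjusted p of 0.00352). gsp-3, a close relative of gsp-4, had 58.6 and 23.6 CPM in the unk49 libraries, against 6.92 and 7.02 CPM in the WT libraries (log2 fold change 2.56 ± 0.61 (SE) at an adjusted p of 0.0082), a call lost without unk49 library 1 or either WT library. Counts for the other sperm genes were 10 higher and 1 lower without unk49 library 1, 20 higher without library 2, and 8 and 9 higher without WT library 1 and WT library 2. The major sperm protein median was 3.62 without unk49 library 1 and 4.22 without library 2, with 28 and 28 members higher. Without unk49 library 1 the fold change of gsp-4 was 2.04 and that of gsp-3 was 1.62.

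Genes of the uterus and of yolk had their highest level in unk49 library 2. All 5 uterine lumen expressed genes (ule-1 to ule-5), whose proteins are secreted into the uterus, were higher in unk49, with a median of 6.38 and a summed level of 823 and 1751 CPM in unk49, against 30.1 and 19.9 CPM in WT. ule-5 had 157 and 303 CPM in the unk49 libraries, against 1.42 and 0.945 CPM in the WT libraries (log2 fold change 7.599 ± 1.09 (SE) at an adjusted p of 0.00157). ule-3 had 314 and 464 CPM in the unk49 libraries, against 5.09 and 4.23 CPM in the WT libraries (log2 fold change 6.38 ± 0.99 (SE) at an adjusted p of 0.0016), and ule-1 had 36.5 and 107 CPM in the unk49 libraries, against 0.275 and 0.225 CPM in the WT libraries (log2 fold change 8.14 ± 0.84 (SE) at an adjusted p of 0.000385). Each of these was higher in unk49 library 2 than in library 1. The calls of ule-2 (5.26) and ule-4 (4.91) were lost without either WT library and, for ule-4, without unk49 library 2. In unk59, library 1 had 0.05 CPM of ule-5 and library 2 had 3.10 CPM, a spread wider than between the WT libraries. The list median was 6.50 with 5 members higher without unk49 library 1 and 5.99 with 4 higher without unk49 library 2, and 3 members were higher without either WT library. Without unk49 library 2, fold changes were 6.96 for ule-5, 7.08 for ule-1, 4.24 for ule-2 and 3.91 for ule-4.

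The 6 vitellogenin genes, which encode yolk proteins, were not called, although none overlapped between the groups. Over all genes tested, 39.8% were higher in both unk49 libraries than in both WT libraries. Their summed level was 20589.8 and 40439.9 CPM in unk49, 73.2 and 5410.3 CPM in unk59 and 4423 and 2058 CPM in WT. vit-2 had 8499.9 and 16145 CPM in the unk49 libraries, against 1058 and 467 CPM in the WT libraries, a log2 fold change of 4.01 ± 1.64 (SE) at an adjusted p of 0.0752. vit-6 had 8600.0 and 15807 CPM in the unk49 libraries, against 2280.2 and 1005 CPM in the WT libraries, a log2 fold change of 2.89 ± 1.397 (SE) at an adjusted p of 0.122. The fold changes of the 6 genes lay between 1.62 (vit-3) and 4.01 (vit-2), with standard errors that left adjusted p between 0.0752 and 0.36. The calls depended on the fit: a fit of these 2 groups alone called 6 of the 6 higher (median 2.81), and DESeq2 called 2. The median was 3.17 without unk49 library 1 and 2.13 without unk49 library 2, with 0 and 0 called in the fit of all groups.

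**Figure D3:**
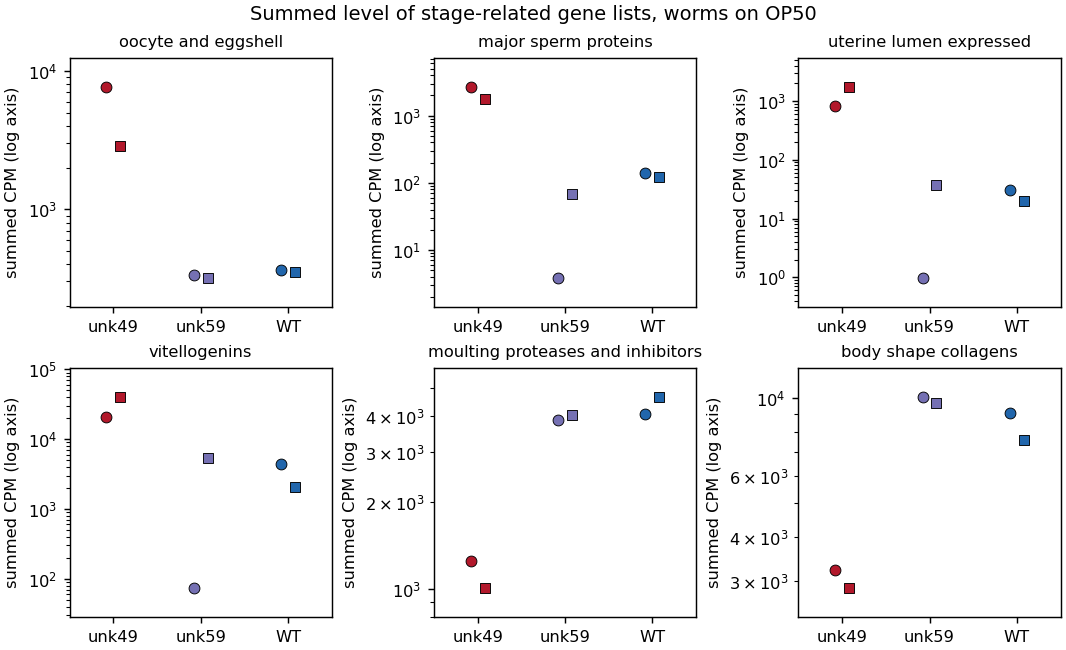
Summed CPM (log axes) of 6 gene lists in unk49, unk59 and WT worms on OP50, with circles for library 1 and squares for library 2. Oocyte and major sperm protein mRNA is highest in unk49 library 1, uterine and vitellogenin mRNA in unk49 library 2, and moulting and body shape genes are lowest in both unk49 libraries.

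Genes that time larval development and the moult were lower in unk49. Of 14 heterochronic genes, which set the order of larval stages, 11 were lower and 1 was higher (median -0.95). lin-29, the zinc finger factor that drives the larval-to-adult switch of the epidermis, had 24.3 and 22.4 CPM in the unk49 libraries, against 58.5 and 66.0 CPM in the WT libraries (log2 fold change -1.41 ± 0.17 (SE) at an adjusted p of 0.000612). lin-42, the worm homologue of Period, had 202 and 142 CPM in the unk49 libraries, against 463 and 424 CPM in the WT libraries (log2 fold change -1.37 ± 0.32 (SE) at an adjusted p of 0.00742). lin-28, an RNA-binding protein of early larval stages, went the other way, with 23.004 and 34.3 CPM in the unk49 libraries, against 9.35 and 9.99 CPM in the WT libraries (log2 fold change 1.57 ± 0.23 (SE) at an adjusted p of 0.00108). The unk49 libraries of these 3 genes did not overlap with WT, as in every called gene. Of 10 moulting oscillator regulators, 8 were lower and 0 higher (median -1.55). blmp-1, a zinc finger transcription factor, had 40.3 and 37.6 CPM in the unk49 libraries, against 145 and 152 CPM in the WT libraries (log2 fold change -1.93 ± 0.15 (SE) at an adjusted p of 0.000178), and nhr-25, a nuclear receptor of the epidermis, had 7.07 and 7.11 CPM in the unk49 libraries, against 30.7 and 28.2 CPM in the WT libraries (log2 fold change -2.05 ± 0.29 (SE) at an adjusted p of 0.000946). nhr-23, another nuclear receptor of the moult, was not called at -0.75 (adjusted p = 0.127; chosen after its values were seen).

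Moulting enzymes and the matrix that they act on fell with these regulators. Of 21 moulting proteases and inhibitors, 17 were lower and 0 higher (median -1.46), with a summed level of 1251 and 1005 CPM in unk49, against 4070.1 and 4649.7 CPM in WT. fbn-1, a fibrillin-related matrix protein, had 42.9 and 33.3 CPM in the unk49 libraries, against 236 and 326 CPM in the WT libraries (log2 fold change -2.88 ± 0.24 (SE) at an adjusted p of 0.000222). mlt-11, a protease inhibitor needed for moulting, had 201 and 141 CPM in the unk49 libraries, against 789 and 961 CPM in the WT libraries (log2 fold change -2.35 ± 0.35 (SE) at an adjusted p of 0.00113). For both genes the highest unk49 library was below the lowest WT library, as in every gene called lower. All 6 furrow collagens, which form the circular furrows of the cuticle, were lower (median -1.81), between -1.70 (dpy-8) and -1.87 (dpy-10). The calls of dpy-3 and dpy-8 were lost without unk49 library 2. Of 12 tested body shape genes out of 13, 10 were lower and 0 higher (median -1.63), with 3229.9 and 2863 CPM in unk49, against 9041 and 7574 CPM in WT. lon-3, a collagen that limits body length, had 44.6 and 42.1 CPM in the unk49 libraries, against 190.1 and 194 CPM in the WT libraries (log2 fold change -2.15 ± 0.39 (SE) at an adjusted p of 0.00247). Without unk49 library 1, dpy-3 was at -2.57 and dpy-8 at -2.39.

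pdi-2 and dpy-18, which act on collagen, were both lower. pdi-2, a protein disulfide isomerase that is also a subunit of collagen prolyl hydroxylase, had 1402 and 1134 CPM in the unk49 libraries, against 4032 and 3951 CPM in the WT libraries (log2 fold change -1.65 ± 0.17 (SE) at an adjusted p of 0.000389). dpy-18, a catalytic subunit of that enzyme, had 57.2 and 50.199 CPM in the unk49 libraries, against 215 and 193 CPM in the WT libraries (log2 fold change -1.92 ± 0.17 (SE) at an adjusted p of 0.000283). phy-2, the other catalytic subunit, chosen after its values were seen, had a log2 fold change of -1.47 ± 0.22 (SE) at an adjusted p of 0.00113. hsp-3 and dnj-27, endoplasmic reticulum chaperones and 2 of the 5 lower members of a chaperone list, had log2 fold changes of -1.296 and -1.65. Over the 51 heat shock proteins and chaperones of that list, 13 were higher and 5 lower (25.5% higher and 9.8% lower, against 27.2% and 19.1% of all genes), with a median of -0.10 that turned to 0.04 without unk49 library 2. Higher chaperone genes numbered 8, 6 and 6 without unk49 library 2, WT library 1 and WT library 2, and lower ones numbered 15 without unk49 library 1 and 13 with upper-quartile scaling. The fit of 2 groups called 6 higher. dnj-26, a DnaJ-domain protein, was higher, with 11.4 and 25.32 CPM in the unk49 libraries, against 0.825 and 0.810 CPM in the WT libraries (log2 fold change 4.48 ± 0.43 (SE) at an adjusted p of 0.000337). The fold change of dnj-26 was 3.71 without unk49 library 2.

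The numbered cuticle collagens had members called in both directions, more of them lower. Of 156 genes, 18 were higher, 39 were lower, 62 were tested but not called and the rest were too low to test (median -0.79). Of the members tested, 15.1% were higher, below the 27.2% of all genes, and 32.8% were lower, above the 19.1% of all genes. col-41 had 29.4 and 16.6 CPM in the unk49 libraries, against 360.1 and 349 CPM in the WT libraries (log2 fold change -3.94 ± 0.61 (SE) at an adjusted p of 0.00129), and col-169 had 58.7 and 44.6 CPM in the unk49 libraries, against 433 and 490.2 CPM in the WT libraries (log2 fold change -3.16 ± 0.34 (SE) at an adjusted p of 0.000401). Both lay below WT in each unk49 library, as every gene called lower did. Calls of higher collagens numbered 12 and 11 without unk49 library 1 and unk49 library 2, and 10 and 7 without WT library 1 and WT library 2, and lower collagens numbered 24 without WT library 1. In the other direction, col-95 had 621 and 1242 reads in unk49, against 1 and 0 in WT. col-124 had 1328 and 1384 CPM in the unk49 libraries, against 156 and 70.4 CPM in the WT libraries (log2 fold change 3.58 ± 1.25 (SE) at an adjusted p of 0.0449), and col-140 had 1185 and 1367 CPM in the unk49 libraries, against 125 and 58.3 CPM in the WT libraries (log2 fold change 3.798 ± 1.16 (SE) at an adjusted p of 0.0276). The calls of col-124 and col-140 were lost when any 1 of the 4 libraries was left out. Their fold changes then stayed between 3.12 and 4.27 for col-124 and between 3.35 and 4.45 for col-140. In unk59, whose libraries share the estimate of spread, col-124 had 3.96 and 174 CPM and col-140 had 5.63 and 142 CPM. A fit of these 2 groups alone kept both calls. Of the 6 adult cuticle collagens, 1 was called, col-19, a marker of the adult epidermis, with 753 and 770.5 CPM in the unk49 libraries, against 87.6 and 40.1 CPM in the WT libraries (log2 fold change 3.58 ± 1.26 (SE) at an adjusted p of 0.0467), and its call too was lost without any 1 of the 4 libraries and with upper-quartile scaling. bli-1 and bli-2, collagens of the adult cuticle struts, were not called at -1.62 (adjusted p = 0.147) and -1.51 (adjusted p = 0.156). Both had every unk49 library below WT, as did 35.3% of all genes tested. In a fit of these 2 groups alone, 3 adult cuticle collagens were higher and 3 lower, which takes in all 6, bli-1 and bli-2 included. The fold change of col-41 was -4.56 without unk49 library 1, and without WT library 1 those of col-124, col-140 and col-19 were 4.27, 4.45 and 4.25.

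The hedgehog-related and patched-related genes, secreted and membrane proteins of the epidermis in nematodes, moved in 1 direction. Of 64 tested out of 85, 44 were lower and 0 higher (median -1.43). This count was 37 without unk49 library 1, 36 without unk49 library 2, 32 without WT library 1 and 31 without WT library 2. The members with the most negative fitted values were at a few reads: ptr-19 had 3 and 1 reads in unk49, against 16 and 35 in WT, and grl-6 had 0 and 3 in unk49, against 12 and 14 in WT.

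**Figure D4:**
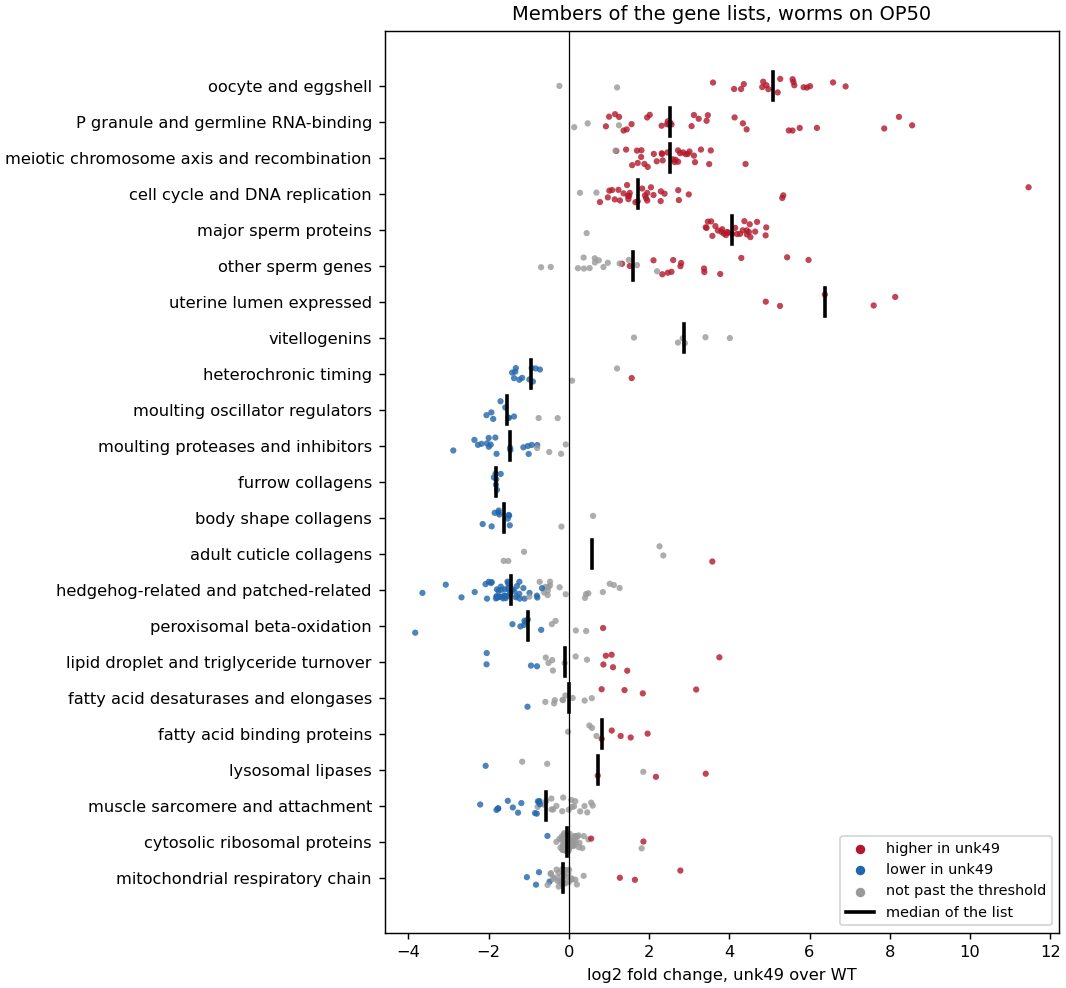
Log2 fold change of unk49 over WT (horizontal axis) for every tested member of 23 gene lists, red where higher, blue where lower and grey where not past the threshold, with a black bar at the median of each list. Germline and uterine lists lie to the right of 0, moulting, furrow, body shape and hedgehog-related lists to the left, and ribosomal proteins sit at a median of -0.04, which was 0.01 with relative log expression scaling.

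Lipid gene lists are read against the shares of all genes, 27.2% higher and 19.1% lower. Of 13 genes of peroxisomal beta-oxidation, which shortens long fatty acids and the side chains of ascaroside pheromones, 8 were lower and 1 was higher (median -1.02). That is 61.5% lower and 7.69% higher. acox-1.2, an acyl-CoA oxidase of ascaroside synthesis, had 24.3 and 41.8 CPM in the unk49 libraries, against 549.6 and 390.1 CPM in the WT libraries (log2 fold change -3.83 ± 0.49 (SE) at an adjusted p of 0.000665). Its relative acox-1.1, chosen after its values were seen, had 88.2 and 117 CPM in the unk49 libraries, against 261 and 213 CPM in the WT libraries (log2 fold change -1.21 ± 0.24 (SE) at an adjusted p of 0.00359). No unk49 library of either gene reached the WT range, as in every called gene. The later enzymes daf-22, a thiolase, and dhs-28, a dehydrogenase, also chosen after their values were seen, had log2 fold changes of -1.07 and -1.02, with calls that were lost without WT library 1. pmp-4, a peroxisomal ABC transporter, had 28.96 and 36.5 CPM in the unk49 libraries, against 95.4 and 78.2 CPM in the WT libraries (log2 fold change -1.41 ± 0.20 (SE) at an adjusted p of 0.000972). acox-1.5 was called higher at 0.85 and lost that call without any 1 of the 4 libraries. Every gene in the list was higher in unk49 library 2 than in library 1, and the number called lower was 6 without unk49 library 1, 9 without unk49 library 2 and 3 without WT library 1.

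cpt-5, a gene of the carnitine palmitoyltransferase family, had 16.5 and 33.3 CPM in the unk49 libraries, against 239.7 and 129 CPM in the WT libraries (log2 fold change -2.89 ± 0.60 (SE) at an adjusted p of 0.00453). Of 2 relatives chosen after their values were seen, cpt-6 had 11.7 and 9.01 CPM in the unk49 libraries, against 37.2 and 34.9 CPM in the WT libraries (log2 fold change -1.80 ± 0.29 (SE) at an adjusted p of 0.00147), and cpt-4 was not called at 0.87 (adjusted p = 0.0529). cpt-5 differed widely between the libraries of each genotype, and its fold change was -3.57 without unk49 library 2 and -2.38 without WT library 1.

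Genes of fat synthesis and storage did not share a direction. Of 17 lipid droplet and triglyceride genes, 6 were higher and 4 lower, with a median of -0.11 that became 0.21 without unk49 library 2. These shares, 35.3% higher and 23.5% lower, stand beside 27.2% and 19.1% of all genes. fasn-1, fatty acid synthase, had 218 and 138 CPM in the unk49 libraries, against 650.1 and 828 CPM in the WT libraries (log2 fold change -2.05 ± 0.27 (SE) at an adjusted p of 0.000731). dgat-2, a diacylglycerol acyltransferase that makes triglyceride, had 40.1 and 22.6 CPM in the unk49 libraries, against 114 and 145 CPM in the WT libraries (log2 fold change -2.05 ± 0.27 (SE) at an adjusted p of 0.000715). On the other side, lid-1, the partner of the fat lipase ATGL-1, had 46.5 and 54.8 CPM in the unk49 libraries, against 19.5 and 17.4 CPM in the WT libraries (log2 fold change 1.46 ± 0.20 (SE) at an adjusted p of 0.000827). atgl-1 itself had 91.7 and 59.6 CPM in the unk49 libraries, against 34.1 and 38.1 CPM in the WT libraries (log2 fold change 1.07 ± 0.23 (SE) at an adjusted p of 0.00527; chosen after its values were seen). dgtr-1, an acyltransferase needed for the permeability barrier of the embryo, had 27.8 and 9.68 CPM in the unk49 libraries, against 1.24 and 1.53 CPM in the WT libraries (log2 fold change 3.75 ± 0.53 (SE) at an adjusted p of 0.000904) and was higher in unk49 library 1, like the oocyte genes. Without unk49 library 1, dgtr-1 was at 2.66 and dgat-2 at -2.66. With upper-quartile scaling 7 members of the list were lower.

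Of 14 fatty acid desaturases and elongases, 4 were higher and 1 was lower, with a median of 0.00. The higher share, 28.6%, was near the 27.2% of all genes, and 7.14% were lower. fat-5, a palmitoyl-CoA desaturase, had 12.8 and 12.5 CPM in the unk49 libraries, against 4.08 and 2.97 CPM in the WT libraries (log2 fold change 1.84 ± 0.30 (SE) at an adjusted p of 0.00163). fat-2, the desaturase that makes linoleic acid, had 997 and 1355 CPM in the unk49 libraries, against 429.6 and 469 CPM in the WT libraries (log2 fold change 1.39 ± 0.21 (SE) at an adjusted p of 0.00125; chosen after its values were seen). elo-8, an elongase-family gene, had 5.27 and 3.84 CPM in the unk49 libraries, against 0.550 and 0.450 CPM in the WT libraries (log2 fold change 3.17 ± 0.54 (SE) at an adjusted p of 0.00182). The other food of the series supplies monomethyl branched-chain fatty acids. Of 10 genes of their synthesis, 0 were higher and 2 lower (median -0.31), or 20% lower, near the 19.1% of all genes. The lower genes were bckd-1A, a subunit of the branched-chain ketoacid dehydrogenase, at -0.68, and let-767, a steroid dehydrogenase-like enzyme, at -0.56. Both calls were lost without either WT library, and that of let-767 also without unk49 library 1. With upper-quartile scaling 5 members of that list were lower, and 4 were without unk49 library 2.

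Among lipid carriers and lysosomal lipases the called members were mostly higher. Of 9 fatty acid binding proteins, 5 were higher and 0 lower (median 0.82), or 55.6% higher, against 27.2% of all genes. lbp-9 had 279 and 268 CPM in the unk49 libraries, against 89.8 and 98.2 CPM in the WT libraries (log2 fold change 1.54 ± 0.27 (SE) at an adjusted p of 0.00208). Without unk49 library 2 the counts were 3 higher and 1 lower, and without either WT library 3 were higher. Of 7 tested lysosomal lipases out of 8, 3 were higher and 1 was lower (median 0.72), or 42.9% higher and 14.3% lower. lipl-5 had 718 and 966 CPM in the unk49 libraries, against 259 and 115.1 CPM in the WT libraries (log2 fold change 2.17 ± 0.39 (SE) at an adjusted p of 0.0023), and lipl-3, at a low level, had 10.1 and 4.95 CPM in the unk49 libraries, against 0.367 and 1.04 CPM in the WT libraries (log2 fold change 3.41 ± 0.55 (SE) at an adjusted p of 0.00144). lipl-6 fell, with 5.74 and 5.35 CPM in the unk49 libraries, against 20.99 and 25.7 CPM in the WT libraries (log2 fold change -2.07 ± 0.22 (SE) at an adjusted p of 0.000401). lipl-7 was called at 0.72 and lost the call without any 1 of the 4 libraries. lipl-1, lipl-2 and lipl-4 were not called at -1.16, 1.86 and -0.54, and lipl-8 had at most 1 read in each of the 4 libraries. The fold change of lipl-3 was 2.67 without unk49 library 1 and 4.34 without WT library 2, and that of lipl-5 was 2.87 without WT library 1.

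Of the 5 largest decreases in CPM, 2 were in enzymes of the methionine cycle, which supplies methyl groups for phosphatidylcholine synthesis, among other uses. ahcy-1, S-adenosylhomocysteine hydrolase, had 1983 and 1824 CPM in the unk49 libraries, against 5224 and 7583 CPM in the WT libraries, a log2 fold change of -1.75 ± 0.24 (SE) at an adjusted p of 0.000809. sams-1, an S-adenosylmethionine synthetase, had 839 and 637 CPM in the unk49 libraries, against 3202 and 3113 CPM in the WT libraries, a log2 fold change of -2.097 ± 0.27 (SE) at an adjusted p of 0.000686. Both kept their calls with any 1 library left out, at -1.99 without WT library 1 and -1.46 without WT library 2 for ahcy-1 and at -2.45 without unk49 library 1 and -1.995 without unk49 library 2 for sams-1. The remaining genes of the pathway were chosen after values were seen. pmt-2, a phosphoethanolamine methyltransferase, had 618 and 766 CPM in the unk49 libraries, against 1297 and 1562 CPM in the WT libraries (log2 fold change -1.05 ± 0.18 (SE) at an adjusted p of 0.00179), whereas its partner pmt-1 was not called at -0.12 (adjusted p = 0.577). metr-1, methionine synthase, was lower at -1.13 (adjusted p = 0.027), a call lost without unk49 library 2 or WT library 2. cbs-1, a cystathionine beta-synthase, was at -0.91 (adjusted p = 0.045), a call lost without unk49 library 2 or either WT library. The sams-1 paralogues differed: sams-3 (-0.48) and sams-4 (-0.37) were not called, and sams-5 had 25.7 and 11.98 CPM in the unk49 libraries, against 2.80 and 2.57 CPM in the WT libraries (log2 fold change 2.81 ± 0.64 (SE) at an adjusted p of 0.00702), a call lost without unk49 library 1 or either WT library. Without unk49 library 1 its fold change was 2.02.

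Several other abundant genes stood out by difference in level. clec-63, a C-type lectin, had 3799.6 and 3854 CPM in the unk49 libraries, against 1200.4 and 799 CPM in the WT libraries (log2 fold change 1.94 ± 0.27 (SE) at an adjusted p of 0.00086). cpr-1, a cathepsin B-like protease, had 1059 and 1561 CPM in the unk49 libraries, against 372 and 336 CPM in the WT libraries (log2 fold change 1.89 ± 0.28 (SE) at an adjusted p of 0.00108). cpr-9, of the same protease family, had 1881 and 2506 CPM in the unk49 libraries, against 971 and 822 CPM in the WT libraries (log2 fold change 1.29 ± 0.34 (SE) at an adjusted p of 0.0137), a call lost without unk49 library 2 or either WT library. On the lower side, irg-7, an infection response gene, had 3790.2 and 3288 CPM in the unk49 libraries, against 6925 and 6034 CPM in the WT libraries (log2 fold change -0.87 ± 0.16 (SE) at an adjusted p of 0.00277). pgp-6, a P-glycoprotein transporter, was among the 6 largest decreases by fold, with 10.5 and 10.5 CPM in the unk49 libraries, against 72.8 and 121.7 CPM in the WT libraries (log2 fold change -3.21 ± 0.33 (SE) at an adjusted p of 0.000363). The rule that named these genes required groups that do not overlap.

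Defence gene families had members in both directions. Of 124 tested C-type lectin genes out of 240, 35 were higher and 17 lower (median 0.46). These shares, 28.2% higher and 13.7% lower, lay near the 27.2% and 19.1% of all genes. clec-222 had 43 and 149 reads in unk49 and 0 in both WT libraries, so it was at least 30.9-fold higher against a floor of 3 reads per library. Of 9 tested protozoan-type lysozymes out of 10, 3 were higher and 0 lower (median 0.44), or 33.3% higher, near the 27.2% of all genes. lys-7, an antibacterial lysozyme, had 329 and 104 CPM in the unk49 libraries, against 12.7 and 11.2 CPM in the WT libraries (log2 fold change 4.17 ± 0.58 (SE) at an adjusted p of 0.000863), with library 1 of unk49 above library 2. Its fold change was 2.97 without unk49 library 1 and 4.70 without unk49 library 2. Of 22 tested saposin-like genes out of 30, 7 were higher and 4 lower (median 0.58), or 31.8% higher and 18.2% lower, also near the shares of all genes. spp-8 had 167 and 185 CPM in the unk49 libraries, against 25.21 and 27.6 CPM in the WT libraries (log2 fold change 2.74 ± 0.18 (SE) at an adjusted p of 0.000158), and spp-18 had 104 and 223 CPM in the unk49 libraries, against 15.7 and 10.7 CPM in the WT libraries (log2 fold change 3.63 ± 0.40 (SE) at an adjusted p of 0.000447). spp-7 had 0 reads in both unk49 libraries, against 14 and 12 reads in WT. Of 4 tested invertebrate-type lysozymes out of 6, 2 (50%) were higher and 0 lower, ilys-2 and ilys-3, at levels of at most 3.54 CPM. Both calls were lost without unk49 library 2 or either WT library. Of 17 tested epidermal antimicrobial peptide genes out of 21, 2 were higher and 2 lower (median -0.29). That is 11.8% in each direction, below the 27.2% and 19.1% of all genes. nlp-28 had 14.4 and 27.04 CPM in the unk49 libraries, against 4.35 and 4.68 CPM in the WT libraries (log2 fold change 2.197 ± 0.31 (SE) at an adjusted p of 0.000878), and cnc-3 had 6.85 and 9.37 CPM in the unk49 libraries, against 18.1 and 17.6 CPM in the WT libraries (log2 fold change -1.13 ± 0.29 (SE) at an adjusted p of 0.011; lost without WT library 1). Calls of higher C-type lectins numbered 23 without WT library 1 and 22 without WT library 2, with 8 lower without WT library 1. Higher saposin-like genes numbered 4 without WT library 2, with 1 lower without WT library 1. Without unk49 library 2 the fold change of spp-18 was 2.90 and that of nlp-28 was 1.59.

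Detoxification families had members called in both directions. Of 66 tested cytochrome P450 genes out of 74, 20 were higher and 9 lower, or 30.3% higher and 13.6% lower, near the shares of all genes, with a median of 0.15 that was -0.04 with upper-quartile scaling. cyp-31A2, a P450 needed for the lipid layer of the eggshell, had 45.7 and 29.2 CPM in the unk49 libraries, against 1.74 and 1.85 CPM in the WT libraries (log2 fold change 4.38 ± 0.53 (SE) at an adjusted p of 0.000572). Of 62 tested UDP-glucuronosyltransferases, which conjugate small molecules, out of 67, 7 were higher and 19 lower (median -0.54), or 11.3% higher and 30.6% lower. ugt-15 had 2 and 4 reads in unk49, against 297 and 250 reads in WT, a log2 fold change of -6.51 ± 0.66 (SE) at an adjusted p of 0.000355. ugt-4 went the other way, with 7.67 and 7.73 CPM in the unk49 libraries, against 0.504 and 0.180 CPM in the WT libraries (log2 fold change 4.47 ± 0.55 (SE) at an adjusted p of 0.00061). Of 44 tested glutathione S-transferases out of 49, 8 were lower and 1 was higher (median -0.38). The lower share, 18.2%, was near the 19.1% of all genes, and the higher share, 2.27%, was below the 27.2% of all genes. gst-10 had 41.5 and 52.5 CPM in the unk49 libraries, against 377 and 226 CPM in the WT libraries (log2 fold change -2.68 ± 0.59 (SE) at an adjusted p of 0.00572). Of 195 tested nuclear hormone receptor genes out of 269, 12 were higher and 21 lower (median -0.08), shares below the 27.2% and 19.1% of all genes. nhr-234 had 2.61 and 2.34 CPM in the unk49 libraries, against 26.5 and 30.6 CPM in the WT libraries (log2 fold change -3.52 ± 0.45 (SE) at an adjusted p of 0.000684), and nhr-235 had 0.257 and 0.221 CPM in the unk49 libraries, against 5.32 and 10.5 CPM in the WT libraries (log2 fold change -5.01 ± 0.73 (SE) at an adjusted p of 0.00103). Several of these counts rested on single libraries. Higher P450 genes numbered 11 without unk49 library 2, 8 without WT library 1 and 9 without WT library 2, and lower glutathione S-transferases numbered 4 without WT library 1. Higher nuclear hormone receptors numbered 4, 3 and 4 without those same libraries, and lower ones 11 without WT library 1 and 11 without WT library 2. With upper-quartile scaling 5 nuclear hormone receptors were higher and 39 lower. The fold change of ugt-4 was 5.38 without WT library 1, and that of ugt-15 was -7.17 without unk49 library 2.

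Among signalling genes, 6 of 25 tested insulin-like peptide genes were higher and 3 lower (median -0.29), shares of 24% higher and 12% lower against 27.2% and 19.1% of all genes. ins-7, an intestinal insulin-like peptide, had 5.53 and 9.94 CPM in the unk49 libraries, against 0.229 and 0.450 CPM in the WT libraries (log2 fold change 4.48 ± 0.56 (SE) at an adjusted p of 0.000636). The count of higher insulin-like genes was 2 without WT library 1 and 3 without WT library 2, that of lower ones was 1 without either, and 6 were lower with upper-quartile scaling. ins-23 had 36 and 98 reads in unk49, against 1 and 0 reads in WT. Of 30 FMRFamide-like peptide genes tested, 10 were lower and 0 higher (median -0.48), flp-3 at -1.07 among them. That is 33.3% lower, against 19.1% of all genes. The count of lower flp genes was 2 without WT library 1 and 5 without WT library 2. Of 55 tested transthyretin-related genes, secreted proteins of mostly unknown function, out of 58, 26 were higher and 3 lower (median 0.92). That is 47.3% higher and 5.45% lower, against 27.2% and 19.1% of all genes. ttr-50 had 168 and 284 reads in unk49 and 1 and 1 in WT, and ttr-42 had 159 and 576 in unk49 and 1 and 1 in WT. Between the unk49 libraries, 11 of the 55 ttr genes were higher in library 1. Other lists tilted the same way, such as glutathione S-transferases (7 of 44) and saposin-like genes (2 of 22), whereas all 20 oocyte genes were higher in library 1. Fewer ttr genes were called higher when any 1 of the 4 libraries was left out. The ttr median was 0.40 without unk49 library 2, 0.67 without WT library 1 and 0.97 without WT library 2.

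Of 81 cytosolic ribosomal protein genes, 2 were higher and 1 was lower (median -0.04, and 0.01 with relative log expression scaling). These shares, 2.47% higher and 1.23% lower, lay below the 27.2% and 19.1% of all genes. Of 36 mitochondrial respiratory chain genes, 3 were higher and 4 lower (median -0.15), but 12 were lower with upper-quartile scaling and 7 without unk49 library 2. With all libraries and TMM scaling, the respiratory chain shares, 8.33% higher and 11.1% lower, were also below those of all genes. sdha-1, a succinate dehydrogenase subunit, had 166 and 152 CPM in the unk49 libraries, against 334 and 323 CPM in the WT libraries (log2 fold change -1.05 ± 0.19 (SE) at an adjusted p of 0.00244). Of 33 muscle sarcomere and attachment genes, 14 were lower and 0 higher (median -0.56), or 42.4% lower, against 19.1% of all genes. unc-22, twitchin, had 84.4 and 51.04 CPM in the unk49 libraries, against 239 and 387 CPM in the WT libraries (log2 fold change -2.21 ± 0.44 (SE) at an adjusted p of 0.00373), and unc-89, obscurin, had 76.8 and 63.3 CPM in the unk49 libraries, against 192 and 297 CPM in the WT libraries (log2 fold change -1.80 ± 0.36 (SE) at an adjusted p of 0.00389). Lower muscle genes numbered 7 without WT library 2. Of 3 body wall muscle markers, myo-3 (-1.397) and unc-54 (-1.18) were called lower, calls that were lost without WT library 2 and, for unc-54, without either unk49 library, and unc-15 (-0.78, adjusted p = 0.0632) was not called. The 3 pharynx markers, the myosins myo-1 and myo-2 among them, had a median of -2.46 and were not called, and 2 were lower without unk49 library 1. Their levels spread widely: myo-2 had 16.1 and 1.41 CPM in the unk49 libraries, against 31.5 and 64.9 CPM in the WT libraries. Of 5 intestine markers, ges-1, vha-6 and ifb-2 were not called, elt-2 was lower at -0.57 and act-5 at -0.83, and both calls were lost without either WT library and, for act-5, without unk49 library 1. Neuron markers rgef-1 (-0.79) and ric-4 (-0.88) were lower, unc-119 and snb-1 were not called, the ric-4 call was lost without WT library 1, and the rgef-1 call without unk49 library 1 or either WT library. Neither coelomocyte marker was called.

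Within these groups, some pairs of paralogues had fold changes of opposite sign. In no pair below did both genes hold a call with every single library left out. These pairs were chosen after their values were seen. rpl-11.1, on chromosome V, had 831 and 803 CPM in the unk49 libraries, against 207 and 243 CPM in the WT libraries (log2 fold change 1.86 ± 0.32 (SE) at an adjusted p of 0.00207), whereas rpl-11.2, on chromosome X and encoding the same ribosomal protein, had 1205 and 1439 CPM in the unk49 libraries, against 1958 and 1869 CPM in the WT libraries (log2 fold change -0.53 ± 0.17 (SE) at an adjusted p of 0.0314; lost without either WT library). eef-1A.2, a translation elongation factor gene on chromosome X, had 1273 and 1183 CPM in the unk49 libraries, against 3725 and 3369.8 CPM in the WT libraries (log2 fold change -1.53 ± 0.20 (SE) at an adjusted p of 0.000716). Its paralogue eef-1A.1, on chromosome III, had 11449 and 10791 CPM in the unk49 libraries, against 9808 and 9697 CPM in the WT libraries and was not called (0.19, adjusted p = 0.323). asb-1, an ATP synthase subunit gene on chromosome III, had 198 and 189 CPM in the unk49 libraries, against 80.0 and 80.1 CPM in the WT libraries (log2 fold change 1.27 ± 0.19 (SE) at an adjusted p of 0.00118), and asb-2, on chromosome X, had 511 and 617 CPM in the unk49 libraries, against 835 and 793 CPM in the WT libraries and was not called (-0.53, adjusted p = 0.0705). ucr-2.3, a ubiquinol-cytochrome c reductase subunit gene on chromosome III, was at 1.65, a call lost without unk49 library 1 or WT library 1, and ucr-2.2, on chromosome X, was at -0.82, a call lost without WT library 1.

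The shares of higher and lower genes were uneven between chromosomes. On the X chromosome, 251 of 2255 tested genes (11.1%) were higher in unk49 and 821 (36.4%) lower, with a median log2 fold change of -0.49. On the 5 autosomes together, 4090 of 13635 tested genes were higher and 16.2% lower, with a median of 0.22. Each autosome had more higher than lower genes, between 25.5% higher on chromosome V and 34.5% on chromosome I. With upper-quartile scaling, X had 8.96% higher and 44.8% lower, and the autosomes 25.28% higher and 22.2% lower. With WT library 1 left out, X had 6.43% higher and 20.5% lower, and in every alternative the lower share on X exceeded the higher share. The germline lists have few X-linked members: the oocyte, meiotic, cell cycle, major sperm protein and other sperm lists have 0, and the P granule list has 4, all higher. By contrast, 6 heterochronic genes are X-linked, all lower, and 3 of the 6 lower furrow collagens are on X. Of the 6 vitellogenins, which were not called, 5 are on X. How much of the X-linked share goes with germline mRNA was not tested. Among pseudogenes, 27.1% of 538 were higher and 3.72% lower, with the caveat that reads of near-identical copies may be misassigned.

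**Figure D5:**
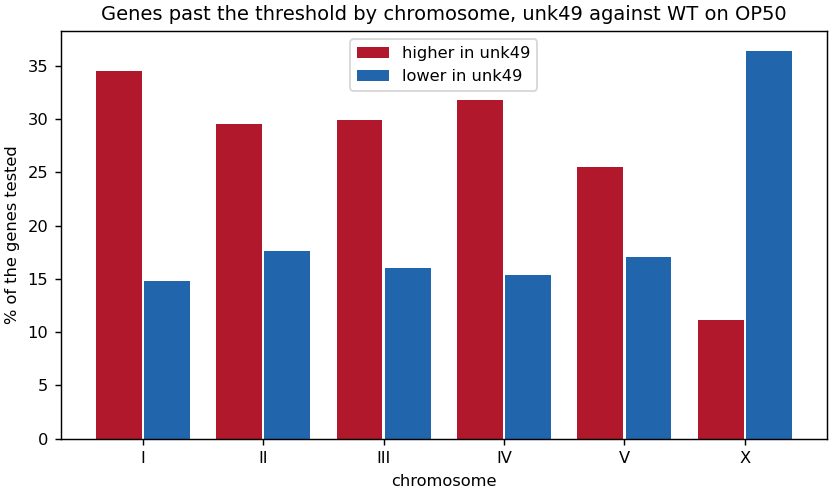
Percentage of tested genes on each chromosome (horizontal axis) that were called higher in unk49 (red) or lower (blue) than in WT on OP50. The X chromosome, with 11.1% higher and 36.4% lower, is the one where lower calls outnumber higher calls.

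The unk59 worms on OP50 show how some of these genes stood in a second scav-4 mutant, in a comparison that uses the same unk49 libraries and in which 54% of all genes tested were called. puf-5 had 435 and 129 CPM in unk49, 0.304 and 0.525 CPM in unk59 and 3.02 and 2.84 CPM in WT, and its log2 fold change of unk49 over unk59 was 9.38 ± 0.83 (SE) at an adjusted p of 0.000116. sams-1 had 839 and 637 CPM in unk49, 3724 and 3002 CPM in unk59 and 3202 and 3113 CPM in WT (unk49 over unk59 -2.19 ± 0.27 (SE) at an adjusted p of 0.000326). acox-1.2 had 24.3 and 41.8 CPM in unk49, 361 and 354 CPM in unk59 and 549.6 and 390.1 CPM in WT (unk49 over unk59 -3.44 ± 0.48 (SE) at an adjusted p of 0.000526). blmp-1 had 40.3 and 37.6 CPM in unk49, 139 and 144 CPM in unk59 and 145 and 152 CPM in WT (unk49 over unk59 -1.86 ± 0.15 (SE) at an adjusted p of 9.82e-05). These 4 genes were among those named for their difference from WT, so a lack of overlap with WT was set by that choice. Their unk49 libraries lay outside the unk59 range too. Not every named gene called against WT was called between the alleles. scav-5 (unk49 over unk59 0.66, edgeR adjusted p = 0.105), scav-2 (0.57, adjusted p = 0.0578) and lipl-7 (0.27, adjusted p = 0.401) were not. scav-5 had 37.4 and 19.8 CPM in unk59. Whether the differences go with the scav-4 lesion, with the strain background or with the developmental time at harvest cannot be told apart with 1 strain per allele and 1 harvest.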

How the data were processed

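RNA from whole L4 worms was sequenced as paired reads of 100 bases by a stranded service, per the labels' protocols. The authors deposited tables of raw read counts per gene, with STAR 2.7.10, DESeq2 and build WBcel235 named in the submitters' processing notes. The role of each tool is not stated there. The unstranded count column was used. The strand columns held near equal shares for the median gene, so overlapping and antisense genes cannot be told apart. Rows that name no gene held 6.64% to 7.09% of the reads of the 4 libraries and were left out. Of 46778 gene IDs, 46603 matched the Ensembl annotation of WBcel235, which gave positions. 1 further table that no label links to a sample was not used.

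Counts were fitted with edgeR 4.0.16 (limma 3.58.1, R 4.3.3): filterByExpr, TMM scaling, a mean for each of 5 groups over 10 libraries, which share 1 estimate of spread, and a robust quasi-likelihood F test of unk49 against WT on OP50, with Benjamini-Hochberg adjustment over 15950 genes. The script was tested on simulated counts. The common biological coefficient of variation was 23.4%. Tables of 1 sample were kept as separate libraries because they differed beyond counting noise (chi-square per degree of freedom 88.9 for unk49, 19.8 for WT). Alternatives were the strand column, relative log expression and upper-quartile scaling, 2 other filters, DESeq2 1.42.0, a fit of 2 groups, a block for library number, and each library left out.

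The members and the gene lists were chosen with earlier results of these data known. Genes were named by rule: scav-4 and 3 coding neighbours on each side; per direction the 6 largest fold changes among called, symbol-bearing genes with 10 or more reads in each library, a mean log2 CPM of 4 or more and groups that do not overlap; the 5 largest CPM differences; up to 2 called members per list and direction; all members of lists of up to 8; and tissue markers. Where the text names other genes, it says that their values had been seen. 3 listed symbols matched no ID. A count of 3 reads was taken as the floor, and it covers counting error only.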

Additional observations from a re-analysis of the deposited data

How the results depend on the processing

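The number of genes called, 7392 (4345 higher, 3047 lower), was 7002 with the strand column, 7343 with relative log expression scaling, 7706 with upper-quartile scaling, 7097 with no filter, 6115 with at least 10 reads in each library, 6408 in a fit of the 2 groups and 7276 with DESeq2. With 1 library left out it was 4168 to 6946 in all, 2463 to 3848 higher and 1705 to 3388 lower, the low ends without WT library 1. scav-4 kept its call and direction in every alternative. Of 1797 alternative values for 153 other named called genes, 177 were past the threshold no longer, in 52 genes, and 51 genes moved by over 1.5-fold without some library. Some list medians changed sign. The lipid droplet median ran from -0.46 without unk49 library 1 to 0.21 without unk49 library 2. For desaturases and elongases it was -0.19 with upper-quartile scaling, -0.0496 with the 2 groups, and from -0.15 without unk49 library 2 (-0.0409 without WT library 2) to 0.31 without WT library 1. It was -0.16 for invertebrate-type lysozymes with 10 or more reads, against 1.14 with the usual filter. For cytochromes P450 it was -0.0442 with upper-quartile scaling and from -0.16 without unk49 library 2 to 0.26 without WT library 1. For ribosomal proteins it was 0.0057 with relative log expression scaling and with DESeq2. For chaperones it ran from -0.45 without unk49 library 1 to 0.0378 without unk49 library 2, and for coelomocyte markers from -0.11 without WT library 1 (-0.0982 without unk49 library 1) to 0.78 without WT library 2. The cause was not tested. A block for library number gave 6823 calls. The numbers stand only in the tables' names, and library 1 minus library 2 differences correlated at -0.19 across 11570 genes between unk49 and WT, so they were not taken to pair the samples. With 2 libraries per genotype and a spread estimated over 5 groups, large fold changes could go uncalled, as that of vit-2 did at 4.01 ± 1.64 (SE). The smallest detectable change was not tested.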
